A study of Gallus gallus with 4 samples.

Results

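The genes described here code for the nuclear subunits of the mitochondrial respiratory chain and of ATP synthase, together with the factors that assemble them. They were chosen by name alone. Every chicken probe set whose single gene symbol in the platform annotation starts with NDUF, UQCR, ATP5 or COX and a digit, or is CYC1 or one of the 4 SDH subunits, was taken. That gave 146 probe sets for 83 genes, out of 37695 chicken probe sets and 13009 named genes on the array. Complex I was represented by 33 genes, complex II by 2, complex III by 8, complex IV by 8, ATP synthase (complex V) by 13, and assembly and related factors by 19.

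The arrays came from chicken embryos that reached stage 5 of Hamburger and Hamilton after 24 h at 38 °C, were electroporated outside the egg, and went back to 38 °C for 14 h. They were dissected at 9 somites. The dissected piece of primitive streak holds the precursors of the presomitic mesoderm, the tissue from which somites form. In the HoxA13 group the vector carried HoxA13 under the CAGGS promoter, an enhanced promoter active in most cell types, together with the nuclear reporter H2B-Venus. In the control group it carried H2B-Venus alone. Each group had 2 arrays, each from a pool of 7 embryos that the labels call a biological replicate. The sources used here give neither the strain nor the share of cells that took up the vector.

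Electrons from NADH enter the chain at complex I and those from succinate at complex II. They pass through complex III and cytochrome c to oxygen at complex IV, and the proton gradient built on the way drives ATP synthase. Part of the core of several complexes is encoded in mitochondrial DNA, and the nuclear genes supply the remaining subunits, catalytic ones among them. Tail bud progenitors and the posterior presomitic mesoderm of the chick embryo are known for high aerobic glycolysis, which makes respiration its natural counterpart. The symbols of the 13 mitochondrially encoded subunits were on 0 of the chicken probe sets, so those subunits are not analysed here.

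The signal of the control arrays placed nearly all of these genes above background. Background was set on each array at the 99th percentile of its 687 viral probe sets, a signal of 14.3 and 14.5 for the HoxA13 pools and of 12.8 and 16.5 for the control pools. Of the 146 probe sets, 112 exceeded it on at least 2 of the 4 arrays and were tested (76.7%, against 42.0% of all chicken probe sets), and 104 of these exceeded it on all 4. These 112 covered 81 of the 83 genes. COX7B, a nuclear subunit of complex IV, and COX14, an assembly factor of the same complex, stayed below background on all 4 arrays. The filter favours probe sets that are bright in 1 group only, but just 8 of the 112 were not above background on every array. Where a gene has several probe sets they are called first, second and so on by their mean signal over the 4 arrays, and a signal is not comparable between probe sets.

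No probe set of the group passed the test between HoxA13 and control. In limma, on log2(signal + 16), 0 of the 112 passed upwards and 0 downwards at an adjusted p of 0.05, where 13 of all 15818 tested probe sets (0.0822%) passed. At an unadjusted p under 0.05 there was 1 of 112 (0.893%), against 5.14% of all tested probe sets. The smallest adjusted p in the group was 0.818. With 2 arrays per group, this does not show that the genes are unaffected.

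Most differences were small on the log2(signal + 16) scale. The median log2 difference, HoxA13 minus control, was 0.00 for the group and 0.03 over all tested probe sets, with 56 probe sets above 0 and 56 below. The median size was 0.12 for the group against 0.20 over all tested probe sets. The group's probe sets were also brighter, with a median control signal of 398 against 61.6 over all tested. The part of brightness in this and the other comparisons with all tested probe sets was not tested. Of the 112, 110 (98.2%) differed by less than 1.5-fold, against 91.5% of all tested probe sets. At this offset 0 differed by more than 2-fold, against 1.54% of all tested. The extremes were -0.71 and 0.50. The offset pulls in dim probe sets: with an offset of 1 or none, the third NDUFA11 probe set differed by -2.05 or -2.44. With 1 array left out, NDUFS1 reached 1.11 (first probe set, without HoxA13 replicate 2) and UQCR10 -1.03 (second probe set, without control replicate 1).

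The intervals show how far these arrays bound the differences. For 96 of the 112 probe sets (85.7%) the 95% interval of the difference lay wholly within 2-fold in either direction, against 67.2% of all tested probe sets, and for 16 it reached beyond. Taking 1 probe set per gene, it lay within for 76 of 81. With an offset of 1 or none it did so for 80 of the 112, against 32.9% and 31.8% of all tested probe sets. With 1 array left out it did so for fewer than 96 of the 112 in every case. Without offset or filter and with a constant prior it did so for 0 of 146, and for 0% of all probe sets. The 2-fold bound thus depends on these settings. Both HoxA13 arrays were above both controls for 19 probe sets (17%, against 18.3% of all tested) and below both for 11 (9.82%, against 14.7%), and the groups overlapped for 82. The difference exceeded the gap between replicates in both groups for 24 probe sets (21.4%), against 21.5% of all tested.

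**Figure D1:**
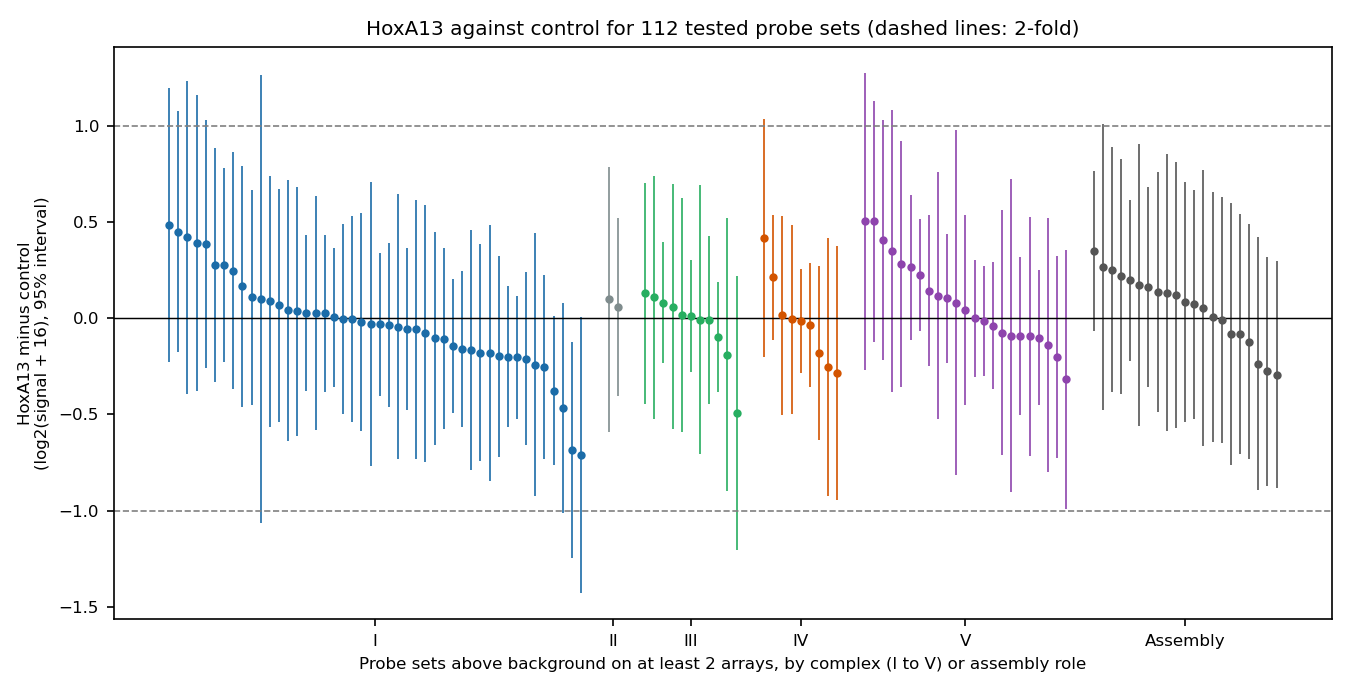
Log2 difference in signal, HoxA13 minus control, on the log2(signal + 16) scale, for the 112 tested probe sets ordered by size within complexes I to V and the assembly factors, with 95% intervals from limma as bars. At this offset all 112 points and 96 of the whole intervals lie within the dashed 2-fold lines, whereas with an offset of 1 or none the third NDUFA11 probe set lies outside and 80 intervals stay within. Of all tested probe sets, 1.54% differed by more than 2-fold at this offset, and 67.2% had intervals within 2-fold.

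**Figure D2:**
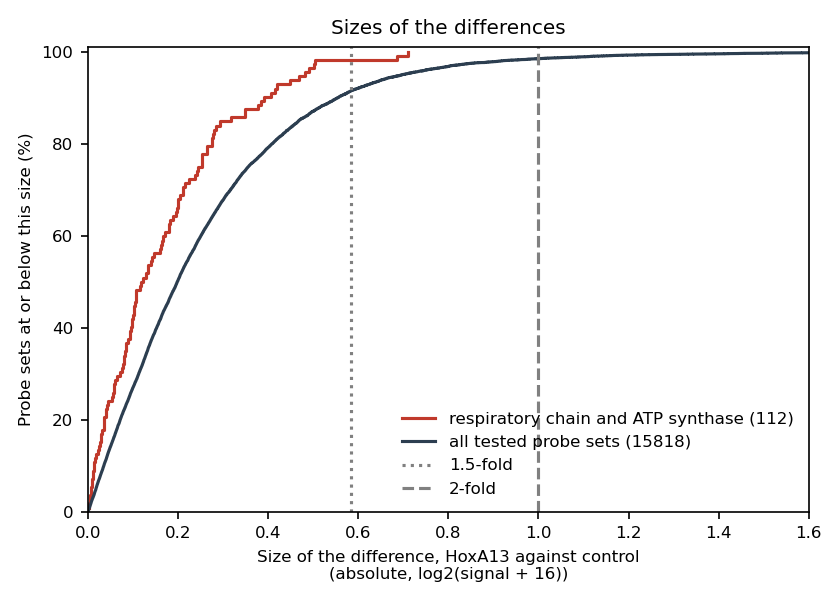
Cumulative share of probe sets (percent) by the absolute log2 difference between HoxA13 and control, for the 112 tested probe sets of the group and for all 15818 tested probe sets. The group's curve lies left of the other, with 98.2% against 91.5% of probe sets within 1.5-fold. The group was also brighter (median control signal 398 against 61.6), and the part of this in the curves was not tested.

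Complex I takes electrons from NADH and passes them to ubiquinone. Its 33 genes gave 46 tested probe sets, of which 19 were above 0 and 27 below, against 54.3% above 0 over all tested probe sets. Their median log2 difference was -0.03. Taken by replicate number, it was -0.06 between the first replicates and -0.06 between the second. Its 6 measured core genes, those of the conserved catalytic part, had 4 of 8 probe sets above 0 (median -0.01). NDUFV1, which binds NADH, had a signal of 638 and 661 on the HoxA13 arrays and 572 and 498 on the controls, with a log2 difference of 0.28 ± 0.22 (SE, limma adjusted p = 0.999). The HoxA13 arrays were both higher, by more than either pair of replicates differed.

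NDUFS1, the largest core subunit with several iron-sulfur clusters, had 3 probe sets that did not move together. The first was 1489.7 and 357 on the HoxA13 arrays and 611 and 764 on the controls, so that HoxA13 replicate 1 stood above and replicate 2 below both controls. The second was 391 and 323 on the HoxA13 arrays, against 487 and 329 on the controls. The third was 179.8 and 179.6 on the HoxA13 arrays, against 155 and 137 on the controls. Their log2 differences were 0.10 ± 0.52, -0.17 ± 0.28 and 0.28 ± 0.27 (SE), and the first ranged from -0.91 to 1.11 when 1 array at a time was left out. None passed (limma adjusted p = 0.999 for each).

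The accessory subunits of complex I, which surround the core and are needed to build and hold it, had 23 of 38 probe sets below 0 (median -0.03). Over all tested probe sets 54.3% were above 0. Taken by replicate number, the accessory median was -0.03 between the first replicates and -0.08 between the second. In both replicate pairs 9 accessory probe sets were above 0 and 14 below. The smallest unadjusted p of the whole group, 0.0220, belonged to the second probe set of NDUFB8. It was 235 and 234 on the HoxA13 arrays and 368 and 407 on the controls, with a log2 difference of -0.69 ± 0.25 and a 95% interval of -1.25 to -0.12, not adjusted for the number of probe sets (limma adjusted p = 0.818). Its first probe set was 1896 and 2010.1 on the HoxA13 arrays, against 1993 and 1902 on the controls, with a difference of 0.00 ± 0.16. The lower values of the second probe set were thus not shared by the first.

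NDUFA11 showed the same kind of disagreement. Its first probe set, 2427 and 3233 on the HoxA13 arrays against 2744 and 4072 on the controls, overlapped between the groups, and its second, 30.4 and 42.2 against 26.7 and 21.1, was higher on both HoxA13 arrays. The third was 4.96 and 1.62 on the HoxA13 arrays, both below background, against control signals of 13.4 and 17.7, at least 1.07-fold lower (limma adjusted p = 0.962). It reached the tested set only through its control arrays, so its direction is no support for a change. NDUFA10, NDUFB4 and NDUFA9 each had a second probe set with a positive difference (0.45 ± 0.28, 0.48 ± 0.32 and 0.42 ± 0.36) beside a first probe set at -0.03 ± 0.17, -0.03 ± 0.33 and -0.21 ± 0.20. For NDUFB4 the second probe set was 93.2 and 113 on the HoxA13 arrays and 88.5 and 52.8 on the controls, where control replicate 2 stood low.

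Of the 38 accessory probe sets, 7 were below both controls on both HoxA13 arrays (18.4%, against 14.7% of all tested) without passing. The 7 include the third NDUFA11 probe set, tested only through its control arrays, so the count is no support for a change. Another 4 were above both (10.5%, against 18.3%): the second probe sets of NDUFA10, NDUFA11 and NDUFB4 and the first of NDUFA13. The second probe set of NDUFB3 was 548 and 528 on the HoxA13 arrays and 637 and 884 on the controls (-0.47 ± 0.24, limma adjusted p = 0.996). Its first overlapped (-0.06 ± 0.19). NDUFA8 was 2900.5 and 2847 on the HoxA13 arrays and 3135 and 3503 on the controls. NDUFAB1, the mitochondrial acyl carrier protein, was 1215 and 1347 on the HoxA13 arrays and 1430.5 and 1431 on the controls. The second probe set of the zinc-binding subunit NDUFS6 was 1280.2 and 1352 on the HoxA13 arrays and 1709 and 1717 on the controls (log2 difference -0.38 ± 0.17, limma adjusted p = 0.963), and its first, 2516 and 2670.4 against 2637 and 3129.8, overlapped. These genes were picked here after their values were seen.

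Complex II, succinate dehydrogenase, is the one enzyme shared by the chain and the citric acid cycle, and 2 of its 4 subunits had a named probe set. The flavoprotein SDHA was 1108 and 1447 on the HoxA13 arrays and 1148 and 1288 on the controls. The membrane anchor SDHD was 773 and 560.3 on the HoxA13 arrays and 819.8 and 459 on the controls. Both overlapped between the groups, with log2 differences of 0.06 ± 0.21 and 0.10 ± 0.31 (SE, limma adjusted p = 0.999 for both), and their 95% intervals lay within 2-fold.

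Complex III hands electrons from ubiquinol to cytochrome c, and its 11 tested probe sets were 6 above and 5 below 0 (median 0.01). UQCRC1 and UQCRC2, the large core proteins on the matrix side, had log2 differences of 0.08 ± 0.14 and 0.13 ± 0.25. UQCRC1 was 3084 and 3242 on the HoxA13 arrays and 3062 and 2917 on the controls, which did not overlap. UQCRFS1, the Rieske iron-sulfur protein, was 189 and 195 on the HoxA13 arrays and 209 and 171 on the controls (0.02 ± 0.27), with the control arrays on either side of the HoxA13 arrays.

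UQCR10, a small accessory subunit of complex III, gave the most negative value of that complex at its second probe set. That probe set was 887 and 832 on the HoxA13 arrays and 831 and 1771 on the controls, so that control replicate 2 alone set the difference of -0.49 ± 0.32, which was 0.05 without it. The first UQCR10 probe set was 5815 and 6544 on the HoxA13 arrays and 6109 and 7125 on the controls (-0.10 ± 0.13). None of these passed (limma adjusted p = 0.999 for each).

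Complex IV, cytochrome c oxidase, reduces oxygen. Its 9 tested probe sets were 3 above and 6 below 0 (median -0.02), against 54.3% above 0 over all tested probe sets. Taken by replicate number, their median was 0.05 between the first replicates and 0.02 between the second. COX4I1, its largest nuclear subunit, was 5515 and 6186 on the HoxA13 arrays and 5707 and 6119 on the controls, with a log2 difference of -0.02 ± 0.12 whose 95% interval ran from -0.29 to 0.25. NDUFA4, a subunit first assigned to complex I and since placed in complex IV, was 2885 and 2758 on the HoxA13 arrays and 2784 and 3006 on the controls (-0.04 ± 0.14). The groups overlapped for both, and the standard error of COX4I1 was the smallest of the 112 probe sets.

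The other complex IV subunits named by the rule went in different directions. COX7C was 2974 and 3184 on the HoxA13 arrays and 2754 and 2559.7 on the controls, higher on both (0.21 ± 0.14, limma adjusted p = 0.999). COX6C overlapped, with 2227 and 2321 on the HoxA13 arrays and 2104 and 3168 on the controls at its first probe set. COX5A, a matrix-facing subunit, had a first probe set of 66.8 and 50.2 on the HoxA13 arrays against 77.5 and 71.0 on the controls, and a second of 37.6 and 37.0 against 26.6 and 21.4. The probe sets of COX5A did not overlap between the groups and pointed opposite ways (-0.28 ± 0.29 and 0.42 ± 0.28).

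ATP synthase consists of a catalytic F1 head and a membrane part joined by stalks. The 4 measured genes of the F1 head gave 5 tested probe sets, 2 of them of the same gene, ATP5C1. All 5 were above 0, against 54.3% above 0 over all tested probe sets, with a median log2 difference of 0.22. Taken by replicate number, 3 of the 5 were above 0 in both pairs. ATP5F1AZ, the Z-linked gene of the alpha subunit, was 4982 and 4897 on the HoxA13 arrays and 4525 and 3944 on the controls (0.22 ± 0.13). ATP5B, the catalytic beta subunit, was 3617 and 4327 on the HoxA13 arrays and 2892 and 3749 on the controls (0.26 ± 0.17). The alpha subunit was higher on both HoxA13 arrays, and the beta subunit overlapped.

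The remaining F1 genes did not pass either. ATP5C1, the rotating gamma subunit, was 2850.1 and 3025 on the HoxA13 arrays and 2919 and 2560.3 on the controls at its first probe set (0.10 ± 0.15). The second ATP5C1 probe set was dim, at 26.8 and 5.50 on the HoxA13 arrays and 20.5 and 6.57 on the controls (0.08 ± 0.40). It was above background on the first replicate of each group only. ATP5E, the small epsilon subunit, was 43.4 and 34.1 on the HoxA13 arrays and 23.9 and 21.1 on the controls, higher on both (0.50 ± 0.28). All 5 had a limma adjusted p of 0.999, and the 95% intervals of 4 lay within 2-fold.

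The 18 tested probe sets of the membrane part and the stalks were 7 above and 11 below 0, with a median of -0.03. Over all tested probe sets 54.3% were above 0. Taken by replicate number, the median of the 18 was -0.001 between the first replicates and -0.02 between the second. Subunit c, which forms the rotating ring in the membrane, is encoded by ATP5G1, ATP5G2 and ATP5G3. ATP5G3 was 4548 and 4817 on the HoxA13 arrays and 4489 and 4977 on the controls (-0.01 ± 0.13). The first ATP5G1 probe set was 1397 and 2202 on the HoxA13 arrays and 1793 and 2272 on the controls (-0.20 ± 0.23), with replicate 2 the higher array in both groups. The second ATP5G1 probe set was near background and pointed the other way. It was 19.1 and 22.1 on the HoxA13 arrays and 10.3 and 18.5 on the controls (0.28 ± 0.28). ATP5G2 stayed near background, at 17.02 and 12.95 on the HoxA13 arrays and 16.1 and 18.0 on the controls.

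Among the other subunits of the membrane part and stalks, ATP5H, subunit d of the outer stalk, was 4231 and 4741 on the HoxA13 arrays and 4208 and 4781 on the controls. ATP5O, which joins the outer stalk to the head, had a first probe set of 3018 and 3453 on the HoxA13 arrays and 3131 and 3519 on the controls. Within each group these probe sets differed more between replicates than the groups differed from each other. The probe sets of ATP5J and ATP5J2 disagreed in sign, and all were dim. ATP5J, coupling factor 6, was 56.6 and 43.2 on the HoxA13 arrays and 45.2 and 19.0 on the controls at its first probe set (0.50 ± 0.34), and -0.09 ± 0.36 at its second. The 5 probe sets of ATP5J2, subunit f, ranged from -0.32 to 0.41. The lowest was below background on both HoxA13 arrays, with 12.6 and 14.4 against control signals of 14.2 and 28.7 (limma adjusted p = 0.999). The groups overlapped, control replicate 2 alone stood high, and the probe set was tested only through its control arrays, so its direction is no support either.

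Assembly and related factors gave 21 tested probe sets, 14 above and 7 below 0 (median 0.08), against 54.3% above 0 over all tested probe sets. Most of these factors insert cofactors or join modules without staying in the finished complex. Taken by replicate number, their median was -0.11 between the first replicates and 0.22 between the second. In both replicate pairs 5 probe sets were above 0 and 3 below. COX7A2L, which joins complexes III and IV into supercomplexes, was 1849 and 2214 on the HoxA13 arrays and 1753 and 1433 on the controls, higher on both (0.35 ± 0.19, limma adjusted p = 0.996). Of the 10 tested probe sets of the complex IV factors, COX7A2L included, 8 were above 0, but only 3 in both replicate pairs. Their median was 0.00 between the first replicates and 0.25 between the second. NDUFAF1, a complex I factor, was 1721 and 1726 on the HoxA13 arrays and 1699.8 and 1329 on the controls (0.20 ± 0.19).

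Others were lower on both HoxA13 arrays. NDUFAF2, which acts late in complex I assembly, was 187 and 202 on the HoxA13 arrays and 232 and 252 on the controls (-0.29 ± 0.26). ATP5S, known as coupling factor B, was 241 and 291 on the HoxA13 arrays and 359 and 293 on the controls (-0.28 ± 0.26). The heme A synthesis factors COX10 and COX15 had differences of 0.22 ± 0.27 and -0.09 ± 0.28, and the copper chaperones COX17 and COX19 of 0.01 ± 0.29 and 0.07 ± 0.26 at their first probe sets. None of these passed (limma adjusted p = 0.999 for each).

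How far a gene's probe sets agree limits what can be said of it. Of the 83 genes, 38 had several probe sets on the array and 23 had several that were tested. In 9 of these 23 all tested probe sets had the same sign, and in 14 they did not. In 7 of the 14 the signs were opposite and the values more than 0.5 apart on the log2 scale: NDUFA9, NDUFA11, NDUFB4, NDUFB8, COX5A, ATP5J and ATP5J2.

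Replicates of a group differed from each other as follows. On the log2(signal + 16) scale the median absolute difference between replicates was 0.20 within HoxA13 and 0.25 within control, against 0.27 and 0.32 over all tested probe sets. These are differences between single arrays, so they are not on the same footing as the differences between group means. Of the 112 probe sets, 45 were higher on replicate 2 in both groups, 28 lower in both and 39 went opposite ways. Over all 15818 tested probe sets, 3994 were higher on replicate 2 in both, 5517 lower in both and 6307 opposite. The 2 groups thus went the same way for 65.2% of the respiratory probe sets and 60.1% of all tested. The differences between replicates correlated across the 112 probe sets with r = 0.34, against 0.30 over all tested probe sets, as a description, since probe sets of one array are not independent. NDUFV3, an accessory subunit of complex I, was 502 and 581 on HoxA13 replicates 1 and 2, against 459 and 822 for control. NDUFB9, another accessory subunit, went the other way, with 553 and 415 on the HoxA13 replicates and 517 and 252 on the controls.

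The ratio of 3′ to 5′ signal, which reflects both RNA integrity and the length of the amplified product, differed between the same arrays. The signal of actin probe sets from the 3′ end was 40.8 and 71.8 times that from the 5′ end for HoxA13 replicates 1 and 2, and 30.1 and 102 times for the same control replicates. For the translation factor ef1a the ratios were 17.5 and 26.6 on HoxA13 and 12.9 and 34.1 on control. Those of gapdh were 13.3 and 14.7 on HoxA13 and 9.64 and 17.6 on control. Replicate 2 thus had the higher ratio in both groups for actin, ef1a and gapdh. All 27 hybridisation spike-ins were brighter on the second replicate of each group than on the first. The control group thus held the lowest and the highest 3′ to 5′ ratio, with the HoxA13 arrays between them, and the part of this in the values above was not tested.

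**Figure D3:**
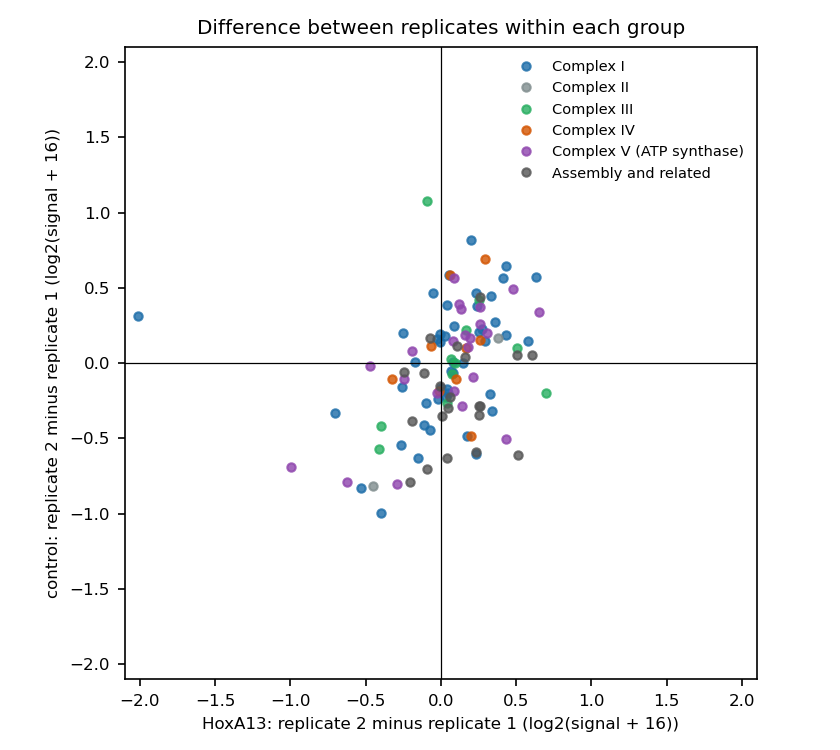
Replicate 2 minus replicate 1 within HoxA13 (horizontal) and within control (vertical), both in log2(signal + 16), for the 112 tested probe sets coloured by complex. In 45 probe sets replicate 2 was higher in both groups (upper right) and in 28 lower in both (lower left), against 3994 and 5517 of all 15818 tested. The lone point at the far left is the first NDUFS1 probe set.

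Other genes of energy metabolism, from lists of named genes, also gave 0 calls in either direction. The 21 tested probe sets of 14 glycolytic genes were 15 above and 6 below 0, against 54.3% above 0 over all tested probe sets. Their median log2 difference was 0.13, against 0.00 for the respiratory group and 0.03 over all tested probe sets, and the difference between the lists was not tested. Taken by replicate number, the glycolytic median was -0.02 between the first replicates and 0.32 between the second. One of 3 probe sets of GPI, the enzyme that turns glucose 6-phosphate into fructose 6-phosphate, was 781 and 779 on the HoxA13 arrays and 657 and 477 on the controls (0.47 ± 0.24, limma adjusted p = 0.996). A brighter GPI probe set, 4111 and 3778 on the HoxA13 arrays and 4463 and 3561 on the controls, had a difference of -0.02 ± 0.15, and the other one of -0.01 ± 0.45. ENO2, an enolase known from neurons, was 65.3 and 40.4 on the HoxA13 arrays and 83.1 and 93.2 on the controls (-0.62 ± 0.31, limma adjusted p = 0.992).

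The citric acid cycle and pyruvate dehydrogenase gave 20 tested probe sets, 9 above and 11 below 0 (median -0.04), against 54.3% above 0 over all tested probe sets. A probe set of SUCLG2, a subunit of succinyl-CoA synthetase, was 545 and 10.03 on the HoxA13 arrays and 1176 and 730.2 on the controls, where HoxA13 replicate 2 alone was below background (-2.96 ± 1.21, limma adjusted p = 0.954). A brighter SUCLG2 probe set was 2299 and 2542 on the HoxA13 arrays and 2522 and 3404 on the controls (-0.28 ± 0.18), and the remaining SUCLG2 probe sets differed by -0.10 ± 0.22 and -0.26 ± 0.35. A probe set of DLD, a subunit shared by the 2-oxoacid dehydrogenases, was 184 and 166 on the HoxA13 arrays and 145 and 74.2 on the controls (0.66 ± 0.33, limma adjusted p = 0.995). A brighter DLD probe set, 647 and 541 on the HoxA13 arrays and 533 and 548 on the controls, overlapped (0.13 ± 0.23), as did another (0.27 ± 0.38).

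Carriers and channels of the mitochondrial membranes had 4 of 9 tested probe sets above 0 (median -0.02), against 54.3% of all tested probe sets. A probe set of VDAC1, a pore of the outer membrane, was 60.5 and 130.4 on the HoxA13 arrays and 248 and 251 on the controls, lower on both without passing (-1.33 ± 0.35, limma adjusted p = 0.455). SLC25A5, an ADP/ATP carrier, was 519 and 544 on the HoxA13 arrays and 643 and 627 on the controls (-0.25 ± 0.22). Assembly factors and related genes outside the name rule had 19 of 27 above 0, against 54.3% above 0 over all tested probe sets. Their median was 0.12, or -0.003 between the first replicates and 0.088 between the second. Among them ACAD9, which acts in complex I assembly, was 13.9 and 5.01 on the HoxA13 arrays, both below background, against control signals of 27.8 and 27.6, at least 1.92-fold lower (limma adjusted p = 0.818). That probe set was tested only through its control arrays, so its direction is no support, and a brighter ACAD9 probe set had a difference of -0.22 ± 0.21. ATPAF1, an assembly factor of the F1 head, had 5 tested probe sets, from -0.05 ± 0.28 to 0.47 ± 0.28. The brightest was 120.4 and 108 on the HoxA13 arrays and 109 and 111 on the controls (0.04 ± 0.28), and the one with the highest difference was dim, at 25.9 and 30.4 on the HoxA13 arrays and 21.0 and 11.3 on the controls.

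Regulators of mitochondrial biogenesis are the transcription factors and coactivators that drive these nuclear genes and the transcription of mitochondrial DNA. They had 11 of 18 tested probe sets above 0 (median 0.15), against 54.3% above 0 over all tested probe sets. Taken by replicate number, their median was -0.004 between the first replicates and 0.11 between the second. PPRC1, a coactivator related to PGC-1alpha, was 234 and 278 on the HoxA13 arrays and 162 and 161 on the controls, higher on both (0.61 ± 0.27, limma adjusted p = 0.957). TFB1M, a mitochondrial RNA methyltransferase, had a probe set at 18.2 and 18.7 on the HoxA13 arrays and 1.86 and 14.9 on the controls, both below background, at least 1.27-fold higher (limma adjusted p = 0.999). It was tested only through its HoxA13 arrays, so its direction is no support. The brightest TFB1M probe set, 199 and 229 on the HoxA13 arrays and 269 and 196 on the controls, had a log2 difference of -0.10 ± 0.28, and another one of -0.39 ± 0.30.

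Markers of the streak and the presomitic mesoderm were bright, and sums of some other markers differed between the groups. Of 8 measured streak and presomitic genes, all but TBX6 were above background on some array, and their signals summed to 14984 and 14473 on the HoxA13 arrays and 13281 and 11544 on the controls. Brachyury, TBXT, which marks streak and tail progenitors, was 6483 and 5820.2 on the HoxA13 arrays and 5873 and 5508 on the controls, and it makes up much of that sum. Of the 9 tested probe sets of the list, 6 were above 0 and 3 below, and 0 passed. At an unadjusted limma p under 0.05 there were 3 (33.3%, against 5.14% of all tested), all higher. Both HoxA13 arrays were above both controls for 5 (55.6%, against 18.3%) and below both for 1 (11.1%, against 14.7%). Single genes of the list still went opposite ways. MSGN1, a presomitic mesoderm gene, was 1399 and 1244 on the HoxA13 arrays and 2040 and 1480 on the controls (-0.39 ± 0.20, limma adjusted p = 0.996). The growth factor FGF8 was 1411 and 1637 on the HoxA13 arrays and 637 and 545 on the controls (1.34 ± 0.21, limma adjusted p = 0.0907). Of 6 measured heart muscle markers, TNNT2, MYH7, MYL2 and NKX2-5 were below background on all 4 arrays, and the list summed to 978 and 1298 on the HoxA13 arrays and 1170.3 and 1116 on the controls. The 1 tested probe set of that list, with a mean control signal of 1108, makes up most of the sum. The summed signal of surface ectoderm genes was 2358 and 1372 on the HoxA13 arrays and 3656 and 2461 on the controls, with all 4 measured genes above background on some array. The brightest probe set, with a mean control signal of 2145, makes up much of that sum. All 5 tested surface ectoderm probe sets were below 0, and 0 passed. At an unadjusted limma p under 0.05 there were 2 (40%, against 5.14% of all tested), both lower. Both HoxA13 arrays were below both controls for 2 (40%, against 14.7%). The summed signal of notochord genes was 211 and 238 on the HoxA13 arrays and 97.7 and 168 on the controls, with 2 of 3 above background. Sums for blood and endothelium (3 of 7 measured genes above background), endoderm (3 of 6) and skeletal muscle (2 of 4) stayed at or below 116 on every array. Neural plate genes (3 of 5) summed to 247 and 156 on the HoxA13 arrays and 193 and 189 on the controls. Their part in the values of the respiratory genes was not tested, and in pieces of tissue fewer cells of a type and less RNA per cell cannot be told apart. HOXA13 itself had 1 probe set, at 16.3 and 8.09 on the HoxA13 arrays and 11.6 and 24.7 on the controls. Its position relative to the insert of the vector is unknown, so it does not check the labels.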

How the data were processed

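Total RNA of 4 pools of embryos was amplified by a 2-cycle protocol, labelled with biotin and hybridised to a chicken array, per the labels' protocols. As deposited, each probe set has 1 linear intensity per array. R 2.12.1 is the only tool in the submitters' processing notes. How the authors summarised, background-corrected and scaled them is not given in the sources used here, and no further scaling was applied. Gene symbols came from the platform annotation (1 symbol for 27168 of 37695 chicken probe sets, several for 177, none for 10350). All 83 symbols of the group were also in a RefSeq gene table, and the Entrez numbers of 82. A further probe set that carries a symbol of the group beside another gene's was left out.

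HoxA13 was set against control (HoxA13 minus control) by limma 3.58.1 under R 4.3.3 (lmFit, then eBayes with an intensity trend and robust estimation) on log2(intensity + 16). It covered 15818 chicken probe sets, those that exceeded background on 2 or more arrays, two-sided, with Benjamini-Hochberg adjustment over all of them and a threshold of 0.05. This setting came from an earlier account of these data, and the group, the gene lists and the rules for naming genes were all chosen with earlier results of these data known. The offset understates differences of dim probe sets. With 2 arrays per group, the smallest p of an exact permutation test (two-sided) is 0.333, so limma's spread, borrowed across probe sets, carries the intervals. Their number limits the precision. Named genes were fixed canonical subunits, of which SDHB, CYC1 and ATP5A1 had no probe set under that symbol (the alpha subunit is listed as ATP5F1AZ), the 2 smallest p per direction in each complex, and genes whose probe sets disagree in sign by over 0.5. In the other lists the 2 genes with the smallest p were named, and further genes are given as examples of their role. Alternatives changed the offset, filter, scaling, prior, replicate block and the arrays used.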

Additional observations from a re-analysis of the deposited data

How the results depend on the processing

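The count of 0 higher and 0 lower probe sets of the respiratory group held under all 14 alternatives. Its median log2 difference stayed between -0.05 (without HoxA13 replicate 2) and 0.07 (without HoxA13 replicate 1). Without offset or filter and with a constant prior, 16 of 146 probe sets of the group differed by more than 2-fold, against 26.7% of all. Over all tested probe sets, 3 higher and 10 lower, the calls were 0 and 2 with an offset of 1 and with none, 0 and 1 without the filter and with a constant prior, and 0 and 0 with these 3 changes together. With the replicate number as a block they were 53 and 107. Leaving out 1 array gave 0 to 23 higher and 5 to 58 lower, 23 and 58 being without control replicate 1. The cause was not tested. At an unadjusted p under 0.05 the group had 8 of 112 with the block (10.1% of all tested) and 10 of 112 without control replicate 1 (10.1%). The main fit has no term for the replicate number. All 27 spike-ins and the 3′ to 5′ ratios of actin, gapdh and ef1a were nevertheless higher on replicate 2 in both groups. The replicate numbers are tied to nothing in the labels and give 2 pairs only, so the pairing is not settled.

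Of 656 comparisons of named probe sets with an alternative, 35 reversed, all without a call. Median centring gave -0.032 for the first NDUFB8 probe set and -0.018 for UQCRFS1, and quantile normalization gave -0.00225 for that NDUFB8 probe set, -0.029 for UQCRFS1 and 0.027 for COX4I1. With 1 array left out, values ranged from -0.038 to 0.046 for the first NDUFB8 probe set, -0.11 to 0.15 for UQCRFS1, -0.10 to 0.066 for COX4I1, -0.91 to 1.11 and -0.44 to 0.11 for the first and second of NDUFS1, -0.31 to 0.50 for SDHD and -0.13 to 0.25 for SDHA. They ranged from -0.16 to 0.41 for UQCRC2, -0.21 to 0.014 and -1.03 to 0.047 for the first and second of UQCR10, -0.48 to 0.11 for the first of COX6C, -0.091 to 0.019 for NDUFA4, -0.38 to 0.32 for the first of NDUFB4 and -0.54 to 0.030 for the first of NDUFA11. In ATP synthase they ranged from -0.42 to 0.58 for the second of ATP5C1, -0.53 to 0.12 for the first of ATP5G1, -0.088 to 0.060 for ATP5G3, -0.49 to 0.30 for the second of ATP5J and -0.22 to 0.068 for the second of ATP5J2. Signals near background limit the dim probe sets of ATP5J, ATP5J2, ATP5G2, ATP5E and COX5A and the second of ATP5C1 and of ATP5G1.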
